A study of Homo sapiens with 7 samples.

Results

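Natriuretic peptides, sarcomeric alpha actins and 4 further stress-linked genes were followed in human heart muscle cells whose MYH7B transcript had been targeted. The 8 genes, NPPA, NPPB, ACTA1, ACTC1, ANKRD1, XIRP1, RCAN1 and CORIN, were taken by symbol from an expression table of 60234 genes, and all 8 were found there. Poly-A RNA came from cardiomyocytes differentiated from WTC-11, an established human induced pluripotent stem cell line, so the data describe 1 line. The cells were matured for 35 days and then exposed for 96 h to 2 uM of an ASO (antisense oligonucleotide), which is a designed strand that binds an RNA of matching sequence. One group received a scrambled ASO (3 libraries) and the other an ASO against MYH7B (4 libraries). The study title describes the MYH7B transcript as a regulatory long noncoding RNA of the heart. The labels do not say whether libraries of a group came from separate cultures, so p-values measure only the spread between these libraries.

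NPPA and NPPB encode the atrial and B-type natriuretic peptides, hormones that heart muscle cells release when stretched and that lower blood pressure and fluid volume through receptors that make cyclic GMP. CORIN is the membrane protease that cuts the NPPA precursor. ACTC1 is the main actin of the adult heart sarcomere, and ACTA1, the skeletal muscle alpha actin, is expressed in the fetal heart and again in the overloaded adult heart. ANKRD1 is a stretch-responsive protein of the titin spring and the nucleus, XIRP1 (Xin) binds actin at the intercalated disc, and RCAN1 is an inhibitor of the phosphatase calcineurin that calcineurin signalling itself induces. These genes are widely read as markers of the fetal or hypertrophic programme.

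Levels are TPM, in which each transcript is scaled by its length and every library sums to the same total, so that the unit keeps no record of sequencing depth. MYH7B itself was 23.0, 36.5 and 25.1 TPM with the scrambled ASO and 9.30, 5.65 and 6.31 TPM in MYH7B ASO replicates 2 to 4 (limma adjusted p = 0.0109). It was 1.29 TPM in replicate 1, and its call was lost over 7 libraries (limma adjusted p = 0.0525) and without MYH7B ASO replicate 4 (0.0618). MYH7B ASO replicate 1 stood apart: its column was out of row order, its correlation with the other libraries was 0.408 as deposited and 0.955 once put in GENCODE 29 order, and mitochondrially encoded genes made up 17.2% of it, where the other 6 had 27.4% to 33.6%. The main comparison therefore used 3 libraries against 3, and values with the reordered replicate 1 are given beside it. Changes are log2 fold changes of TPM + 1 (MYH7B ASO minus scrambled ASO) with standard errors (SE) from limma, and a gene is called at an adjusted p under 0.05 over the 15988 genes that averaged 1 TPM or more. The 10 cardiomyocyte markers examined were all above that level, with a summed level of 9170 to 10235 TPM with the scrambled ASO and 7857 to 8963 TPM with the MYH7B ASO. In bulk RNA, fewer cells of a type and less RNA per cell cannot be told apart.

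Of the 8 genes, 4 fell with the MYH7B ASO (ANKRD1, ACTA1, RCAN1 and ACTC1) and none rose. Over all tested genes 1.48% were called lower and 0.181% higher. NPPA and NPPB were also below every scrambled ASO library in each of the 3 treated libraries without passing the test, and XIRP1 and CORIN overlapped between the groups. Groups did not overlap, with the MYH7B ASO lower, for 6 of the 8 genes and for 14.1% of all tested genes. The median log2 fold change was -0.73 over the 8 genes and -0.044 over all tested genes. The 8 genes were put together with earlier results of these data known, so these counts describe them and are not separate evidence.

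**Figure D1:**
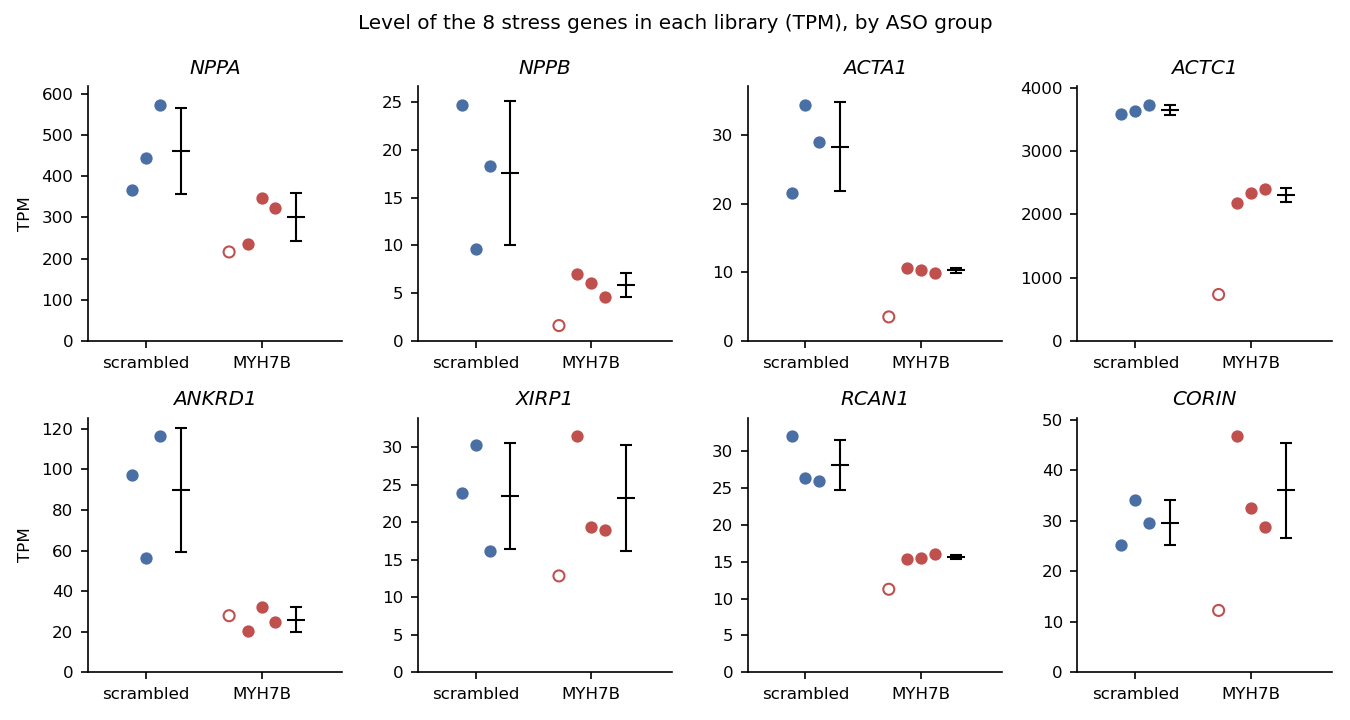
Level of each of the 8 genes in TPM (y axis, from 0, own scale per gene) in scrambled ASO libraries (blue) and MYH7B ASO replicates 2 to 4 (red), with the mean and SD of the 3 libraries as a black bar and MYH7B ASO replicate 1 as an open circle outside that mean. ACTC1 was 3583 to 3730 TPM against 2185 to 2403 TPM, while XIRP1 and CORIN overlap between the groups.

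Promoter sequences are shown for 5 of the genes, because ANKRD1 and ACTA1 had the largest called changes of the 8 genes, ACTC1 is the other sarcomeric alpha actin, NPPA is the most abundant hormone and XIRP1 overlapped between the groups. RefSeq promoters on GRCh38.p14 were matched by symbol for 7 of the 8 genes. Each sequence below is the 250 bases before the annotated start, 5′ to 3′ on the minus strand, and for ACTC1 the most upstream of 3 RefSeq starts. Capitals mark the core of the M-CAT element bound by TEAD factors (CATTCC, or GGAATG where it lies on the other strand) and the CArG box bound by SRF.
ANKRD1, chr10:90921088-90921337: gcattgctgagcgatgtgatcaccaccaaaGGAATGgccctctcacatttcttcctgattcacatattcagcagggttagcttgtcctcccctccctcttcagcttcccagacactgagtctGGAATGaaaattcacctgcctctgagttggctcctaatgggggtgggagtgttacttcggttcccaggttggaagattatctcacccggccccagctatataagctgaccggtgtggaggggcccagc
ACTA1, chr1:229434095-229434344: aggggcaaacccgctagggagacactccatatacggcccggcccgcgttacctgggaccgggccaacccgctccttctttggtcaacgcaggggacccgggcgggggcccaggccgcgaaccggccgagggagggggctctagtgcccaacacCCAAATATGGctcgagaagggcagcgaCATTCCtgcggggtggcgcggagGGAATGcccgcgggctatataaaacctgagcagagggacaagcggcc
ACTC1, chr15:34795550-34795799: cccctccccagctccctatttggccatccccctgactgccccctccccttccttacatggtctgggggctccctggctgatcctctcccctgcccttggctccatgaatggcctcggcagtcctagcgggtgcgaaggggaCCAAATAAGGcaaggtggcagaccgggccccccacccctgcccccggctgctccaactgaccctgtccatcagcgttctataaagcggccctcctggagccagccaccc
NPPA, chr1:11847784-11848033: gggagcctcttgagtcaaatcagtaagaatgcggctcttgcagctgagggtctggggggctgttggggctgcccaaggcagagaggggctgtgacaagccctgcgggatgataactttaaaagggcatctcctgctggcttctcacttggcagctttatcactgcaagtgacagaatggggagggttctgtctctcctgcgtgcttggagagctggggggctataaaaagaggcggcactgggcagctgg
XIRP1, chr3:39192596-39192845: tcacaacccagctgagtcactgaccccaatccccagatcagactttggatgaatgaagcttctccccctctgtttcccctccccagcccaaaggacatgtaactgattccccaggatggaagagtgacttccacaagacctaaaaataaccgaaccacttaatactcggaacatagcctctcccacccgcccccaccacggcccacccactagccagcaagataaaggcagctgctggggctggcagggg

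The M-CAT core stood at 2 places in ANKRD1, beginning 220 and 128 bases before the start, and at 2 places in ACTA1, beginning 70 and 47 bases before it. Both strands were searched, and over 35116 RefSeq promoters of the same length 11.9% held the core and 0.94% held it at 2 or more places. A CArG box began 97 bases before the start of ACTA1 and 109 bases before that of ACTC1, against 1.16% of all promoters with one. A further CArG box began 239 bases before the most upstream of 6 RefSeq starts of RCAN1, and an M-CAT core 174 bases before the most downstream start of ACTC1. No M-CAT core stood before any of the 6 starts of RCAN1, which was called lower, and CORIN held neither element. ACTA1 held both elements, as did 0.194% of all promoters, and no capitals overlap another motif. NPPA and XIRP1 hold neither set of letters in this window. NPPA holds the GATA factor core GATAA at 2 places and the NKX factor core CACTT at 2 places, and 3.87% and 9.18% of all promoters hold them at 2 or more. XIRP1 holds 1 GATAA, 1 CACTT and 1 NFAT core (GGAAA), which 20.4%, 37.6% and 55.6% of all promoters hold at least once. It also holds a MEF2 site beginning 111 bases before the start, as do 2.8% of all promoters. The fourth of the 6 starts of RCAN1 is preceded by GGAAA at 4 places, and no other of its starts by any. Of all promoters, 1.87% hold GGAAA at 4 or more places. The numbers of places counted over all promoters equal those seen in these genes. The shares therefore describe single promoters and do not test whether the matches are unusual. The expression table gives 1 value per gene and does not separate these starts. A match in letters is a description and not a shown binding site.

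NPPA, the gene of atrial natriuretic peptide, was the 191st most abundant of all genes with the scrambled ASO. It lies on chromosome 1 at positions 11845709 to 11848345 (GENCODE 29, GRCh38). Scrambled ASO replicates 1 to 3 had 367, 444 and 574 TPM, and MYH7B ASO replicates 2 to 4 had 235, 347 and 323 TPM. The highest treated library was thus just under the lowest control library. The mean was 462 ± 104 TPM (SD, n = 3) against 302 ± 58.7 TPM (SD, n = 3), which is 65.4% of the scrambled level. The log2 fold change was -0.61 with an SE of 0.20 and a 95% interval from -1.07 to -0.14, and it did not pass over all genes (limma adjusted p = 0.206). MYH7B ASO replicate 1 had 216 TPM, the lowest value of the 7 libraries. For NPPA the authors' deposited table lists a shrunken log2 fold change of -0.45 (adjusted p-value 0.0774).

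NPPB, the gene of B-type natriuretic peptide and neighbour of NPPA (positions 11857464 to 11858931), was far less abundant. It had 24.7, 9.66 and 18.4 TPM with the scrambled ASO and 7.05, 6.07 and 4.57 TPM with the MYH7B ASO. The groups did not overlap, but the scrambled ASO libraries themselves spread over a wide range, with replicate 2 close to the treated libraries. The mean was 17.6 ± 7.56 TPM (SD, n = 3) against 5.90 ± 1.25 TPM (SD, n = 3), or 33.5% of the scrambled level. The log2 fold change of -1.36 (SE 0.32, 95% interval -2.08 to -0.63) did not pass (limma adjusted p = 0.0882). Leaving out scrambled ASO replicate 2 gave -1.71, which passed (limma adjusted p = 0.0314), and leaving out any of the other 5 libraries did not (0.178 to 0.278). MYH7B ASO replicate 1 had 1.605 TPM of NPPB. The authors' deposited table lists NPPB at -0.89 (adjusted p-value 0.00754), under the threshold.

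The 2 hormone genes were also set against each other within each library. NPPB was 6.74%, 2.17% and 3.20% of NPPA TPM in the scrambled ASO libraries while MYH7B ASO replicates 2 to 4 had 2.99%, 1.75% and 1.41%, and these ranges overlap. The log2 ratio of NPPA to NPPB was 4.70 ± 0.79 (SD, n = 3) and 5.45 ± 0.51 (SD, n = 3), a difference of 0.75 (2-sided exact permutation test, p = 0.3, smallest possible 0.1). With replicate 1 the difference was 0.98 (2-sided exact permutation test, p = 0.143).

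CORIN, the protease that activates the NPPA product, overlapped between the groups. Its level was 25.2, 34.2 and 29.6 TPM with the scrambled ASO and 46.7, 32.6 and 28.8 TPM with the MYH7B ASO. Replicate 2 of the MYH7B ASO was the highest library and the others lay among the controls. The mean was 29.6 ± 4.51 TPM (SD, n = 3) against 36.0 ± 9.45 TPM (SD, n = 3). On the log2 scale the fold change was 0.25 (SE 0.21, limma adjusted p = 0.609), and its 95% interval ran from -0.22 to 0.73. MYH7B ASO replicate 1 had 12.3 TPM, and with it the log2 fold change was -0.11. CORIN stands at 0.29 in the authors' deposited table (adjusted p-value 0.357).

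Of 18 listed genes for other steps of natriuretic peptide action, 15 were expressed highly enough to test, 2 were called lower and none higher. PRKG1, the cyclic GMP-dependent protein kinase of smooth and heart muscle, fell from 10.1 ± 0.98 to 3.05 ± 0.14 TPM (SD, n = 3 each), a log2 fold change of -1.44 (limma adjusted p = 0.0103). PDE3A, a phosphodiesterase that breaks down cyclic AMP and is inhibited by cyclic GMP, fell from 12.1 ± 2.12 to 3.34 ± 0.54 TPM (SD, n = 3 each), a log2 fold change of -1.58 (limma adjusted p = 0.0109). Without MYH7B ASO replicate 4 both missed the threshold (limma adjusted p = 0.0554 for PRKG1 and 0.0507 for PDE3A). The receptors were not called. NPR3, the clearance receptor and the most abundant gene of the list, had a log2 fold change of -0.67 (80.8 ± 10.8 against 50.8 ± 10.3 TPM, limma adjusted p = 0.132). NPR1, the receptor that makes cyclic GMP in response to both peptides, had 7.18 ± 2.75 TPM against 5.07 ± 1.23 TPM (SD, n = 3, limma adjusted p = 0.583). MME (neprilysin), which degrades natriuretic peptides, had a log2 fold change of -1.04 (limma adjusted p = 0.172). FURIN, which cuts the NPPB precursor, was 25.7 ± 3.78 and 27.4 ± 2.56 TPM (SD, n = 3 each). NPPC, the third ligand, was at most 0.49 TPM in these 6 libraries. The median log2 fold change of the 15 genes was -0.53. The authors' deposited table calls NPR3 and MME lower as well as PRKG1 and PDE3A. With replicate 1 added, the groups overlapped for NPR3 and MME, while PRKG1 and PDE3A were still called by limma.

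Genes around NPPA and NPPB on chromosome 1 were also compared. Of 9 listed genes 7 were tested, none was called, and their median log2 fold change was 0.23. CLCN6, a chloride and proton exchanger of late endosomes, was higher in each of the 3 treated libraries than in every scrambled ASO library, with a log2 fold change of 0.48 (limma adjusted p = 0.377). Over all tested genes 7.11% had groups that did not overlap with the MYH7B ASO higher. PLOD1 and MFN2, the most abundant of these neighbours, had log2 fold changes of 0.23 and -0.14 (limma adjusted p = 0.573 and 0.675).

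ACTA1 (chromosome 1, positions 229431245 to 229434098) was a minor actin in these cells, and it was lower in every treated library. It had 21.5, 34.4 and 29.01 TPM with the scrambled ASO and 10.7, 10.4 and 9.87 TPM with the MYH7B ASO. The treated libraries were tightly grouped, with an SD of 3.93% of their mean against 22.9% among the controls. The mean fell from 28.3 ± 6.48 to 10.3 ± 0.40 TPM (SD, n = 3 each), to 36.4% of the scrambled level, a log2 fold change of -1.35 (SE 0.19, limma adjusted p = 0.0156). The call was lost without scrambled ASO replicate 3 or MYH7B ASO replicates 2, 3 or 4 in turn (limma adjusted p = 0.0558, 0.0591, 0.0591 and 0.0833). Replicate 1 had 3.50 TPM, and with it the change was -1.68 but not called (limma adjusted p = 0.0621). ACTA1 stands at -1.16 in the authors' deposited table (adjusted p-value 8.17e-08).

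ACTC1 (chromosome 15, positions 34788095 to 34795726) was the 32nd most abundant gene with the scrambled ASO. It had 3583, 3629 and 3730 TPM there and 2185, 2335 and 2403 TPM with the MYH7B ASO. Both groups were narrow and far apart. The mean fell from 3647 ± 74.9 to 2308 ± 112 TPM (SD, n = 3 each), to 63.3% of the scrambled level, a log2 fold change of -0.66 (SE 0.10, limma adjusted p = 0.0209). The call was lost when any of the 6 libraries was left out (limma adjusted p from 0.0547 to 0.103), with the size between -0.62 and -0.69. Replicate 1 had only 734 TPM, and with it the change was -1.07 with an SE of 0.38 (limma adjusted p = 0.261). ACTC1 stands at -0.55 in the authors' deposited table (adjusted p-value 6.63e-04).

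The 2 alpha actins were also compared within each library, where scaling between libraries has little effect. ACTA1 was 0.601%, 0.949% and 0.778% of ACTC1 TPM in the scrambled ASO libraries and 0.488%, 0.444% and 0.411% in MYH7B ASO replicates 2 to 4. Every treated library was below every control library, and replicate 1 (0.478%) was too. The log2 ratio of ACTA1 to ACTC1 was -6.98 ± 0.32 (SD, n = 3) against -7.67 ± 0.12 (SD, n = 3), a difference of -0.69 (2-sided exact permutation test, p = 0.1, the smallest possible). With replicate 1 the difference was -0.61 (2-sided exact permutation test, p = 0.0286, the smallest possible for 3 against 4). The coding sequences of actins are closely alike and the counting method is not given in the sources used here, so reads may have been divided between actin genes with error.

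**Figure D2:**
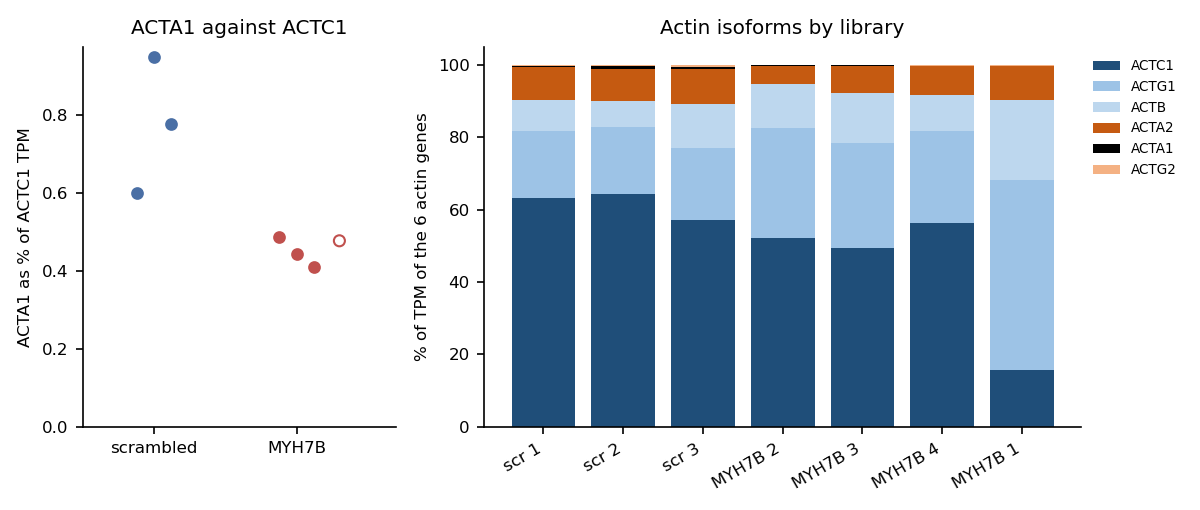
Left, ACTA1 as a percent of ACTC1 TPM (y axis from 0) in each scrambled ASO library (blue) and MYH7B ASO replicates 2 to 4 (red), with replicate 1 as an open circle. Right, the share of each of the 6 actin genes in their summed TPM, where ACTC1 takes 57.3% to 64.5% with the scrambled ASO (scr), 49.4% to 56.3% in MYH7B ASO replicates 2 to 4 and 15.7% in replicate 1.

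Among the other 4 actins, 1 was called lower and 3 were not called. ACTG2, the gamma actin of visceral smooth muscle, had 14.9, 19.6 and 32.3 TPM with the scrambled ASO and 3.99, 3.49 and 6.21 TPM with the MYH7B ASO, a log2 fold change of -2.02 (limma adjusted p = 0.0173). That call was lost without scrambled ASO replicate 2 or any 1 of MYH7B ASO replicates 2 to 4 (limma adjusted p from 0.0514 to 0.0757). ACTA2, the alpha actin of vascular smooth muscle and of fetal heart muscle, had 551 ± 81.6 TPM (SD, n = 3) against 299 ± 80.6 TPM (SD, n = 3), with a log2 fold change of -0.91 that did not pass (limma adjusted p = 0.0910). Its groups did not overlap, with the MYH7B ASO lower, as for 14.1% of all tested genes. The authors' deposited table calls both ACTG2 and ACTA2 lower (ACTA2 at -0.67, adjusted p-value 0.00463). The cytoplasmic actins ACTB and ACTG1 had log2 fold changes of -0.06 and 0.15 (limma adjusted p = 0.942 and 0.655), and the sign of ACTB turned under other scalings. The share of ACTC1 in the TPM of all 6 actins was 57.3% to 64.5% with the scrambled ASO and 49.4% to 56.3% in MYH7B ASO replicates 2 to 4. Replicate 1 had 15.7%, with ACTG1 at 52.4%, far from every other library.

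ANKRD1 (chromosome 10, positions 90912096 to 90921276) had the largest change of the 8 genes in the comparison of 6 libraries. It had 97.3, 56.4 and 116 TPM with the scrambled ASO and 20.3, 32.4 and 25.1 TPM with the MYH7B ASO. The lowest control library was well above the highest treated library. The mean fell from 90.0 ± 30.6 to 25.9 ± 6.07 TPM (SD, n = 3 each), to 28.8% of the scrambled level, a log2 fold change of -1.72 (SE 0.28, limma adjusted p = 0.0251). Leaving out scrambled ASO replicate 1, scrambled ASO replicate 3, MYH7B ASO replicate 2 or MYH7B ASO replicate 4 ended the call (limma adjusted p = 0.0930, 0.0667, 0.0954 and 0.119). Replicate 1, at 27.9 TPM, lay among the other treated libraries, and with it ANKRD1 was the 1 gene of the 8 still called, against 0.967% of all genes called lower in that comparison. In the authors' deposited table ANKRD1 is listed at -1.37 (adjusted p-value 1.40e-09).

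XIRP1 (chromosome 3, positions 39183210 to 39192596) did not separate the groups. It had 23.9, 30.3 and 16.2 TPM with the scrambled ASO and 31.5, 19.5 and 18.9 TPM with the MYH7B ASO. The highest value of the 7 libraries, like the lowest (12.9 TPM in replicate 1), was in the MYH7B ASO group. The mean was 23.5 ± 7.06 and 23.3 ± 7.10 TPM (SD, n = 3 each). The log2 fold change of -0.01 (limma adjusted p = 0.993) had a wide 95% interval, from -0.63 to 0.61. In the authors' deposited table XIRP1 is listed at 0.02 (adjusted p-value 0.972).

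Of 19 listed relatives and partners of ANKRD1 and XIRP1 at the titin spring, Z-disc and intercalated disc, 15 were tested and none was called. Their median log2 fold change was -0.18, with a range from -0.59 to 0.24. CSRP3, the muscle LIM protein of the Z-disc, came closest, with 386 ± 36.4 TPM (SD, n = 3) against 256 ± 6.77 TPM (SD, n = 3), which is a log2 fold change of -0.59 (limma adjusted p = 0.0555). CSRP3 passed under 4 of 20 alternatives, namely a filter at 5 TPM, median ratios, quantiles and removal of mitochondrially encoded genes (limma adjusted p from 0.0311 to 0.0436). It is also called in the authors' deposited table (adjusted p-value 0.00165). TTN, the giant spring protein that ANKRD1 binds near, had a log2 fold change of -0.42 (limma adjusted p = 0.325). CTNNB1, a partner of XIRP1 at cell junctions, had 0.24 (limma adjusted p = 0.403). ANKRD2 and XIRP2, the closest relatives of the 2 genes on the list, were under 1 TPM in every one of these libraries.

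RCAN1 (chromosome 21, positions 34513142 to 34615142) fell in a narrow band. It had 31.9, 26.4 and 25.9 TPM with the scrambled ASO and 15.4, 15.4 and 16.0 TPM with the MYH7B ASO. All treated libraries were well under the lowest control. The mean fell from 28.1 ± 3.36 to 15.6 ± 0.32 TPM (SD, n = 3 each), to 55.6% of the scrambled level, a log2 fold change of -0.80 (SE 0.15, limma adjusted p = 0.0418). The call was close to the threshold and was lost when any 1 of the 6 libraries was left out (limma adjusted p from 0.0783 to 0.152) and under rescaling between libraries (0.0666 by median ratios and 0.0762 by quantiles). Replicate 1 had 11.2 TPM, and with it the change was -0.91 (limma adjusted p = 0.0588). In the authors' deposited table RCAN1 is listed at -0.68 (adjusted p-value 0.00281).

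In the calcineurin and NFAT list, all 19 genes were tested, 1 was called lower and none higher, with a median log2 fold change of -0.11. The called gene was CABIN1, a binding inhibitor of calcineurin, which fell from 24.9 ± 1.07 to 12.97 ± 1.81 TPM (SD, n = 3 each), a log2 fold change of -0.90 (limma adjusted p = 0.0350). Its call was lost when any 1 of the 6 libraries was left out (limma adjusted p from 0.0827 to 0.128). The catalytic subunit PPP3CA had a log2 fold change of -0.31 and NFATC4 had 0.51 (limma adjusted p = 0.409 and 0.332). NFATC4 is called higher in the authors' deposited table (0.50, adjusted p-value 0.0390). RCAN2, a relative of RCAN1, had 46.6 ± 6.56 TPM against 36.9 ± 10.8 TPM (SD, n = 3, limma adjusted p = 0.487). MYOZ2, a Z-disc protein that binds calcineurin and the most abundant of the list, and CHP1, a calcineurin-like protein, had log2 fold changes of -0.09 and -0.04 (limma adjusted p = 0.753 and 0.914).

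**Figure D3:**
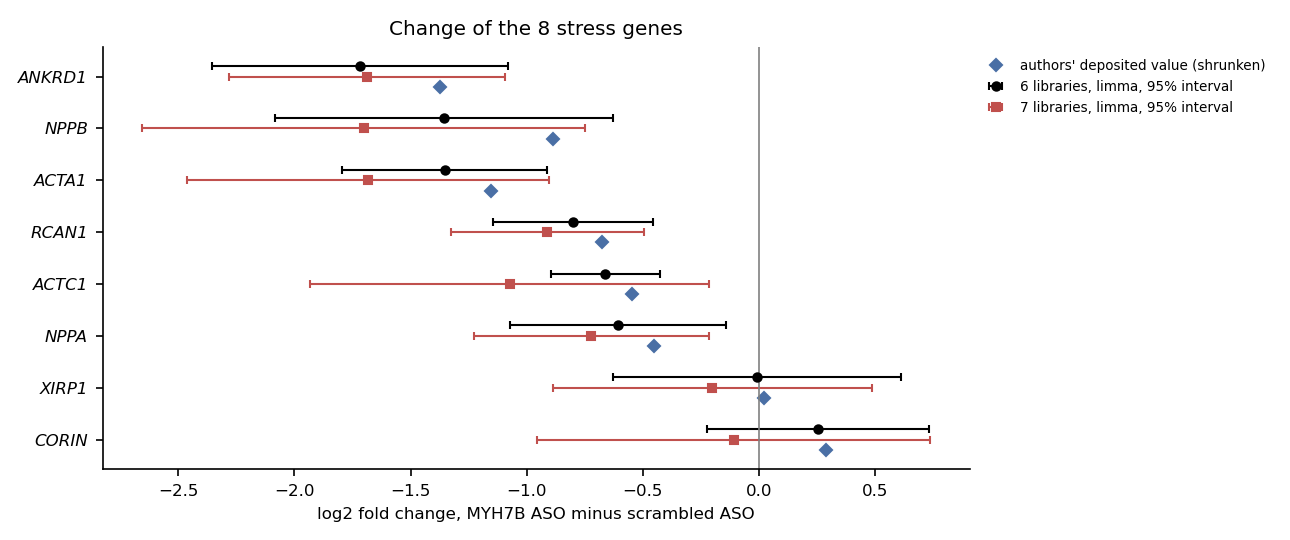
Log2 fold change of each of the 8 genes (x axis, MYH7B ASO minus scrambled ASO) with 95% intervals from limma over 6 libraries (black) and over 7 libraries with the reordered replicate 1 (red), and the authors' deposited shrunken value (blue diamonds, no interval drawn). From ANKRD1 at -1.72 to NPPA at -0.61 the 6-library intervals lie below 0, before any adjustment over genes, and those of XIRP1 and CORIN cross it.

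With replicate 1 added, 6 of the 8 genes again had groups that did not overlap, with the MYH7B ASO lower, as did 10.2% of all genes tested over the 7 libraries. The authors' deposited table called 5 of the 8 genes lower (NPPB, ACTA1, ACTC1, ANKRD1 and RCAN1), against 5.69% of all its genes with an adjusted p-value. That table rests on the same libraries and is not a separate measurement.

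Transcription factors, coactivators and histone deacetylases known to act on promoters of these genes were compared as a list of 30. All were tested, 2 were called lower and none higher. The called genes were TEAD3 and TEAD1, factors that bind M-CAT elements. TEAD3 went from 35.3 ± 1.68 to 9.41 ± 0.76 TPM (SD, n = 3 each), a log2 fold change of -1.80 (limma adjusted p = 0.00209), and it was called in each of the 6 comparisons that left out 1 library. TEAD1 had a log2 fold change of -0.76 (limma adjusted p = 0.0316) and was called in none of them (limma adjusted p from 0.0633 to 0.132). Over 7 libraries TEAD3 was still called (limma adjusted p = 0.00495) and TEAD1 was not (0.0657). The median of the list was 0.06. SRF, which binds CArG boxes, had 15.8 ± 2.47 and 19.2 ± 1.41 TPM (SD, n = 3 each, limma adjusted p = 0.493), and its coactivator MYOCD had a log2 fold change of -0.39 (limma adjusted p = 0.410). GATA4 and NKX2-5, core activators of NPPA and the most abundant factors listed, had -0.30 and 0.39 (limma adjusted p = 0.370 and 0.503). TBX2, a repressor of NPPA in the developing heart, had 10.1, 11.5 and 13.6 TPM with the scrambled ASO and 27.1, 20.1 and 19.3 TPM with the MYH7B ASO, a log2 fold change of 0.86 that did not pass (limma adjusted p = 0.0764). MEF2A had -0.84 (limma adjusted p = 0.0976). The authors' deposited table calls 3 of the 30 lower (TEAD1, TEAD3 and MEF2A) and 2 higher, TBX2 at 0.89 (adjusted p-value 5.77e-07) and HAND2 at 0.38 (0.0378), against 3.02% of all its genes called higher.

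Of 25 other genes used as hypertrophy or fetal markers, 23 were tested, 3 were called lower and none higher, with a median log2 fold change of -0.33. MYL4, the atrial and fetal essential light chain, fell from 1043 ± 197 to 376 ± 41.6 TPM (SD, n = 3 each), a log2 fold change of -1.46 (limma adjusted p = 0.00599). SYNPO2L, an actin-associated protein of the Z-disc, fell by 1.16 on the log2 scale (limma adjusted p = 0.00817), and CRYAB, a small heat shock protein, fell by 0.70 (limma adjusted p = 0.0268). MYL4 was called in all 6 comparisons that left out 1 library, SYNPO2L in all but that without MYH7B ASO replicate 4 (limma adjusted p = 0.0507) and CRYAB in none (0.0633 to 0.122). Over 7 libraries MYL4 and SYNPO2L were still called (limma adjusted p = 0.00583 and 0.0132) and CRYAB was not (0.135). MYH7, the slow myosin heavy chain that rises in hypertrophy, had a log2 fold change of -1.27 (limma adjusted p = 0.148) and MYH6, its fast partner, 0.14 (0.788). The regulatory light chain MYL7 and the slow skeletal troponin TNNI1, the 2 most abundant genes of the list, had -0.33 and 0.42 (limma adjusted p = 0.296 and 0.404). GDF15, a stress-induced secreted factor, had 2.91 ± 1.85 TPM (SD, n = 3) against 6.18 ± 3.95 TPM (SD, n = 3, limma adjusted p = 0.410).

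**Figure D4:**
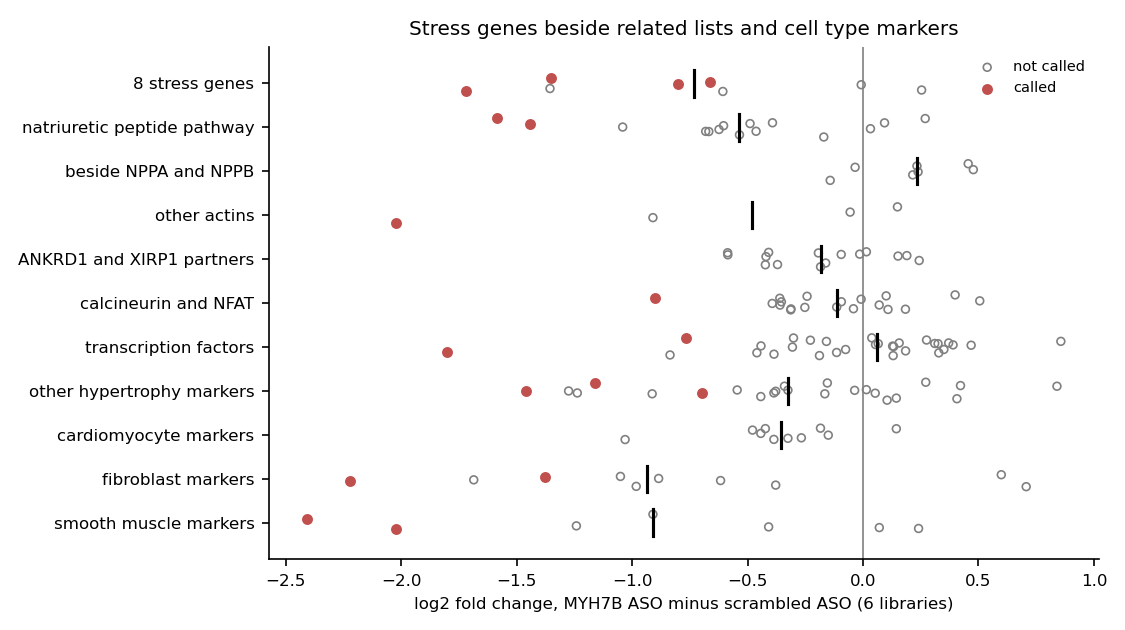
Log2 fold change over 6 libraries (x axis) of every tested gene in the 8 stress genes, 7 related lists and 3 cell type marker lists (rows), with called genes in filled red, others as open circles and the list median as a black bar. The median is -0.73 for the 8 stress genes, -0.53 for the natriuretic peptide pathway, -0.36 for cardiomyocyte markers and 0.23 for the genes beside NPPA and NPPB.

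Markers of the cell types these cultures could hold were compared in the same way. Cardiomyocyte markers had a median log2 fold change of -0.36 with none of 10 called. The closest to a call was RYR2, the calcium release channel, at -1.03 (limma adjusted p = 0.0536). RYR2 alone of the 10 is called in the authors' deposited table (-0.84, adjusted p-value 2.32e-04). Groups did not overlap, with the MYH7B ASO lower, for 5 of the 10 markers and for 14.1% of all tested genes. When every level was taken relative to the mean log2 level of those 10 markers in each library, an alternative chosen after seeing the data, none of the 8 genes was called. ANKRD1 was then -1.36, ACTA1 -0.998, NPPB -1.001, RCAN1 -0.45, ACTC1 -0.31 and NPPA -0.25 (limma adjusted p = 0.101, 0.0861, 0.160, 0.258, 0.349 and 0.597). Under that scale the median of all tested genes was 0.31, and 98 of them were called. Fibroblast markers had 2 of 10 called lower (COL1A2 and LUM), with a median of -0.93 and a summed level of 2922 to 5267 TPM against 1373 to 2109 TPM. TCF21 and PDGFRA of that list were higher in each of the 3 treated libraries (log2 fold changes 0.71 and 0.60, limma adjusted p = 0.168 and 0.152). Both are called higher in the authors' deposited table (adjusted p-values 0.00270 and 0.00287). That table calls 5 of the 10 lower (COL1A1, COL1A2, COL3A1, LUM and DDR2), against 5.69% of all its genes. Replicate 1 had a fibroblast sum of 4169 TPM, within the control range, and over 7 libraries none of the 10 was called. Smooth muscle markers had 2 of 7 called lower (MYH11 and ACTG2), against 1.48% of all tested genes. Their median was -0.91, and their summed level was 1284 to 1847 TPM against 813 to 1011 TPM. CNN1 and SMTN went the other way, with log2 fold changes of 0.24 and 0.07, overlapping groups and no call. In the deposited comparison 4 of these 7 markers were called lower (MYH11, ACTG2, ACTA2 and TAGLN) and none higher. Replicate 1 had a smooth muscle sum of 1333 TPM, also within the control range, but its markers differed. Its TAGLN was 378 TPM, within the control range (193 to 402 TPM). Its MYH11 was 13.4 TPM, within the range of MYH7B ASO replicates 2 to 4 (7.64 to 15.6 TPM). The limma calls of MYH11 and ACTG2 remained over 7 libraries. The part of fibroblasts and smooth muscle cells in the levels of the 8 genes was not tested. Skeletal muscle markers, which bear on ACTA1, summed to 3.04 to 7.60 TPM against 3.53 to 4.55 TPM over 8 genes, 2 of which were listed at 0 in all 6 libraries.

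The genes whose log2 levels followed each of the 8 most closely over the 6 libraries, among genes averaging 5 TPM or more, were taken as a description. The group difference enters these correlations. ACTC1 was followed most closely by IL1RAP, MSRB3 and THSD4 (Pearson r = 0.998, 0.998 and 0.996), and ANKRD1 by PELI1, COL8A1 and EDIL3 (r = 0.998, 0.995 and 0.994). ACTA1 was nearest to ACSS3, REPS1 and ZBED6 (r = 0.996, 0.996 and 0.994), and RCAN1 to ORC3, PPM1A and GOLGA4 (r = 0.995, 0.995 and 0.994). NPPA was nearest to NPAS2, UXS1 and TERF1 (r = 0.991, 0.989 and 0.989), and NPPB to NBL1, NOMO1 and PHTF1 (r = 0.995, 0.993 and 0.991). CORIN was nearest to BRMS1L, RAB40C and SLC66A2 (r = 0.993, 0.991 and 0.991). XIRP1 was nearest to LINC01405 and RRP15 (r = 0.985 and 0.975). None of the 8 was among the 3 nearest genes of another.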

How the data were processed

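Poly-A RNA of 7 libraries was measured. The authors deposited 1 table of TPM for 60234 genes, with 1 column per library matched through the description labels. They also deposited a comparison table for 25374 genes with a mean normalized count as a signal, shrunken log2 fold changes with standard errors, a test score, p-values and adjusted p-values. The submitters' processing notes name DESeq2 and GRCh38.p13; the quantifier and annotation are not given in the sources used here. TPM keeps no depth, so no counting interval is given and the spread of replicates is the error. No per-sample column was left unused (0).

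Changes were fitted with limma 3.58.1 in R 4.3.3 (lmFit, eBayes with trend) on log2(TPM + 1), which understates changes of low genes, over genes averaging 1 TPM or more, with Benjamini-Hochberg adjustment over all tested genes. The script was tested on simulated data. Ratios were compared with 2-sided exact permutation tests over libraries. MYH7B ASO replicate 1 was reordered by sorted GENCODE 29 identifiers (58721 values, 58721 genes) and used only in an alternative. Which annotation that column was made with is not given in the sources used here. Gene positions are from GENCODE 29 and promoters from RefSeq (GRCh38.p14). Motifs and plots were made in Python 3.11.15 with matplotlib 3.10.9.

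The 8 genes and the gene lists were chosen with earlier results of these data known. The text names the 8 genes, list genes that were called, the 2 most abundant genes of each list, the 3 genes most like each of the 8 and MYH7B. Some items that the rule would name are not reported here. Other list genes (for their role, such as receptors, relatives or factors, or for coming near the threshold) were chosen after their values were seen. Alternatives were other pseudocounts, filters, scalings, limma settings, replicate blocks, 7 libraries, and leaving out each library.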

Additional observations from a re-analysis of the deposited data

Results flagged for a closer look

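Among 10 measures (the 8 genes and 2 log2 ratios) in the 4 MYH7B ASO libraries, 3 had 1 library far from the other 3 by Dixon's criterion at the 95% level, where chance gives about 1 in 20. In each case it was replicate 1, the reordered column. ACTA1 was 3.50 TPM there against 9.87 to 10.7 TPM in the other 3. ACTC1 was 734 TPM against 2185 to 2403 TPM. RCAN1 was 11.2 TPM against 15.4 to 16.0 TPM. The mean log2 level of the 10 cardiomyocyte markers was 7.32 in that library against 7.90 to 8.30 in the other 3, and its part in these values was not tested.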

How the results depend on the processing

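All 20 alternatives kept the direction of NPPA, NPPB, ACTA1, ACTC1, ANKRD1 and RCAN1. ACTA1 and ANKRD1 were each called in 11 of the 20, ACTC1 in 8, RCAN1 in 5, NPPB in 1 and NPPA in none. The main comparison called 265 genes in all, 4 of the 8 genes and 9 of 112 tested list genes. These 3 counts were 40, 0 and 2 with no filter on low values, 150, 1 and 5 in limma without trend, 170, 1 and 7 over 7 libraries, and 98, 0 and 2 relative to cardiomyocyte markers (added after seeing the data). Relative to those markers 52 genes were called higher and 46 lower, against 29 and 236 in the main comparison, and 56 and 221 by median ratios and 55 and 202 by quantiles. Leaving out 1 library gave 53 to 149 genes in all, 0 to 3 of the 8 and 2 to 6 list genes; the fewest list genes remained without MYH7B ASO replicate 4. With the replicate block, by title or description number, limma called 0 genes of 15988, with 1718 and 1096 at an unadjusted p under 0.05, and 0 of the 8 and 0 list genes. In this block 2 pairs carry the difference and the unpaired libraries add nothing. Same-numbered libraries had deviations correlated at 0.076 and 0.11 by title and at -0.073 and -0.039 by description. Pairs with no shared number ranged from -0.069 to 0.041. Deviations from a mean of 3 libraries are tied to each other, so these values cannot decide whether libraries were paired. Under these blocks the log2 ratio of ACTA1 to ACTC1 was -0.80 and -0.92, and that of NPPA to NPPB 0.11 and 0.60. The ACTA1 to ACTC1 difference was -0.44 with a pseudocount of 5 and passed over 7 libraries (-0.61).

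Signs turned for uncalled genes. XIRP1 was 0.046 by median ratios, 0.064 by quantiles, 0.018 without mitochondrially encoded genes, 0.15 with the title replicate block, 0.35 relative to cardiomyocyte markers, and -0.24 to 0.19 with 1 library left out. CORIN was -0.11 over 7 libraries and -0.052 with the description block. ACTB was 0.20 over 7 libraries, 0.025 with array weights, 0.001 by median ratios, 0.018 with the title block, 0.30 relative to the markers, and -0.25 to 0.22 with 1 library left out. CHP1 was 0.015 by median ratios, 0.038 with the title block, 0.31 relative to the markers and -0.094 to 0.034 with 1 library left out. PLOD1 was -0.022 with the description block. Relative to the markers GATA4 was 0.053, MFN2 0.21, MYL7 0.029 and MYOZ2 0.26. The cause of these moves was not tested. No alternative could restore the sequencing depth, so the precision at low TPM is unknown.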

Other observations

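Within groups, the 8 genes did not vary as 1 block. Over the 6 libraries, the deviations from the group mean of log2 level had a Pearson r of 0.84 for NPPA with ACTC1 and -0.33 for NPPA with NPPB, and -0.86 for ANKRD1 with XIRP1. These values rest on 6 libraries with 2 group means removed and are given as a description. Among atrial markers none of 9 was called (median 0.04), and among 5 ventricular markers MYL2, the ventricular regulatory light chain, was called lower, with a log2 fold change of -1.96 (limma adjusted p = 0.0121). Of the other 4 ventricular markers 3 were above 0, IRX4 at 0.63, LBH at 0.14 and MYL3 at 0.12 (limma adjusted p = 0.494, 0.763 and 0.885), and the median of the 5 was 0.12. Epicardial markers had a median of -0.18, with none of 6 called.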
